A study of Mus musculus with 16 samples.

Results

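Expression of 8 genes of cholesterol synthesis was examined in iWAT, inguinal white adipose tissue, a fat depot that lies under the skin of the groin. The set was a fixed list of names, Hmgcs1, Idi1, Fdps, Fdft1, Sqle, Lss, Cyp51 and Insig1, and all 8 were found by symbol among the 54752 gene IDs of the count table. Of these, 7 encode enzymes and 1, Insig1, encodes the sensor that holds the pathway in check. RNA was sequenced from mice labelled as C57BL/6 females of 90 days, with 4 libraries for each of 4 genotypes. WT mice had neither mutation. Lepob/+ mice had 1 ob allele of the leptin gene, which carries an early stop, and 1 normal allele. SOD1G93A mice had a high copy transgene of mutant human SOD1, a model of amyotrophic lateral sclerosis, and 2 normal leptin alleles. SOD1G93A-Lepob/+ mice, called double mutants here, had both. The study crossed Lepob/+ females with SOD1G93A males and asked what losing 1 leptin allele does to this fat depot in the disease model. RNA came from bulk tissue with no cell type separated. Counts of mouse genes check neither genotype, since the transgene is not a mouse gene and a count does not show the stop in Lep.

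Cholesterol is built from acetyl-CoA through mevalonate, isoprenoid units, squalene and lanosterol. Transcription of nearly the whole pathway is driven by the factor SREBP2, encoded by Srebf2, which is released from the endoplasmic reticulum when membrane sterol is low. INSIG proteins retain the factor there when sterol is high, and Insig1 is itself a target of these factors. The related factor SREBP1c, encoded by Srebf1, drives fatty acid synthesis downstream of insulin. White fat stores much of the free cholesterol of the body in its lipid droplets, takes most of it up from lipoproteins and makes comparatively little.

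The sequences just before the start of transcription are given for 3 of the genes, to show which known control elements stand in front of a gene that followed the others from library to library (Lss, Insig1) and of one that did not (Hmgcs1). They come from RefSeq windows of 250 bases before the RefSeq start on build GRCm38.p6, plus strand, and are printed only up to the base before the gene in GENCODE. Capitals mark matches to 4 motifs, searched in both directions: the sterol regulatory element, the E-box, the NF-Y box and the GC box, whose letters are spelled out with their counts after the sequences. Motifs were searched and counted in the whole windows. None of the matches overlapped another.
Hmgcs1, chr13:119690101-119690350: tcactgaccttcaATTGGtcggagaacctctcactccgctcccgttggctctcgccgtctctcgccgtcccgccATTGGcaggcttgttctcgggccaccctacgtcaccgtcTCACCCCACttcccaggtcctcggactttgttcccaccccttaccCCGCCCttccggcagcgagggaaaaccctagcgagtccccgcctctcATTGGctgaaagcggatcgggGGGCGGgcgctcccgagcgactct
Insig1, chr5:28071162-28071362: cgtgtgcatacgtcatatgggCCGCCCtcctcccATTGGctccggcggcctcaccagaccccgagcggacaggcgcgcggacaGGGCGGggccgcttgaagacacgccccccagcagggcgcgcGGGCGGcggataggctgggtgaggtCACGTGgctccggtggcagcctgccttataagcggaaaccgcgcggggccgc
Lss, chr10:76531355-76531587: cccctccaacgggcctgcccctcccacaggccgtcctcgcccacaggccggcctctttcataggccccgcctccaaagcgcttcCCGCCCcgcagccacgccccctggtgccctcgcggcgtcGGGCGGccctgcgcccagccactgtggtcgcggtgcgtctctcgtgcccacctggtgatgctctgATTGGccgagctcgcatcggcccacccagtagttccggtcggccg

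RefSeq windows were at hand for 5 of the 8 genes, these 3 and Idi1 and Cyp51. The sterol regulatory element, searched as TCACNCCAC, was found in Hmgcs1 alone of the 5, 137 bases before the start, and in 1.054% of 32817 windows of the same length. The E-box, searched as CACGTG, was found in Insig1 alone, 101 bases before the start, and in 6.021% of windows. All 5 windows held at least 1 NF-Y box, which was searched as CCAAT and which 33.833% of windows hold. Likewise all 5 held at least 1 GC box, which was searched as GGGCGG and which 32.721% of windows hold. In Idi1 all matches, and in Cyp51 the NF-Y box, lie within the gene as GENCODE draws it, since the RefSeq start is further in. A missing match says only that these letters are not in the window.

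The libraries held 36.8 to 61.9 M counts each. All 12 mature adipocyte markers were measured, with a summed level of 19260 to 43830 CPM (counts relative to library size after TMM scaling). However, 6 libraries also carried lymph node transcripts: WT replicates 1 and 2, Lepob/+ replicate 3 and SOD1G93A replicates 1, 2 and 4. In these 6 the 7 lymph node stroma markers summed to 499.9 to 1070 CPM and the 12 T cell markers to 735.5 to 1469 CPM, whereas the other 10 libraries had 5.17 to 47.3 and 11.8 to 33.7 CPM. Of the 7 stroma markers, Chst4 was at 0 in all 10 of these and Glycam1 in 9 of them. Ccl21a was at most 3.10 CPM there, Ccl19 at most 0.62 and Madcam1 at most 1.02. However, Cxcl13 overlapped, at 2.35 to 45.4 CPM in these 10 and 36.5 to 61.8 in the 6. Fut7 overlapped as well, at 0.18 to 2.01 CPM in these 10 and 0.66 to 7.97 in the 6. No double mutant library was lymph node rich, against 3 of 4 in SOD1G93A, so the comparison of these genotypes is also largely one of lymph node content. Skeletal muscle markers summed to 189900 CPM in Lepob/+ replicate 4 (TMM factor 0.664), to 4860 CPM in WT replicate 3, the library highest for 5 of the 8 genes, and to 10.05 to 316.3 CPM in the others. Their part in the results was not tested. The library labelled SOD1G93A-Lepob/+ replicate 3 had 0 counts of Xist and 1756 of Y-linked genes, against the label of a female mouse.

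All 8 genes were expressed in every library, with 439 counts (Sqle) or more. Levels can be compared between genes only per length of transcript. Per kb of merged exon, the median over the 16 libraries was 44.7 CPM per kb for Insig1, 19.0 for Hmgcs1, 11.0 for Fdft1, 9.15 for Fdps, 7.30 for Idi1, 5.73 for Cyp51, 3.67 for Sqle and 2.62 for Lss. Insig1 stood above Hmgcs1 in 15 of 16 libraries, and Cyp51 above Sqle and Sqle above Lss in 16 of 16. The order in the middle depended on the length used. Over the longest coding transcript instead, an alternative chosen after seeing the data, Fdps came second at 27.9 CPM per kb, beside Hmgcs1 at 25.2, with Fdps higher in 10 of 16 libraries, and Lss at 6.05 reached the level of Cyp51 at 6.44, with Cyp51 higher in 8 of 16. Insig1 remained highest by both measures. Among the 14 other enzymes of the pathway, levels per kb of merged exon ran from 1.55 for Hsd17b7, an enzyme of the late sterol steps, to 33.0 for Pmvk, which phosphorylates mevalonate a second time.

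**Figure D1:**
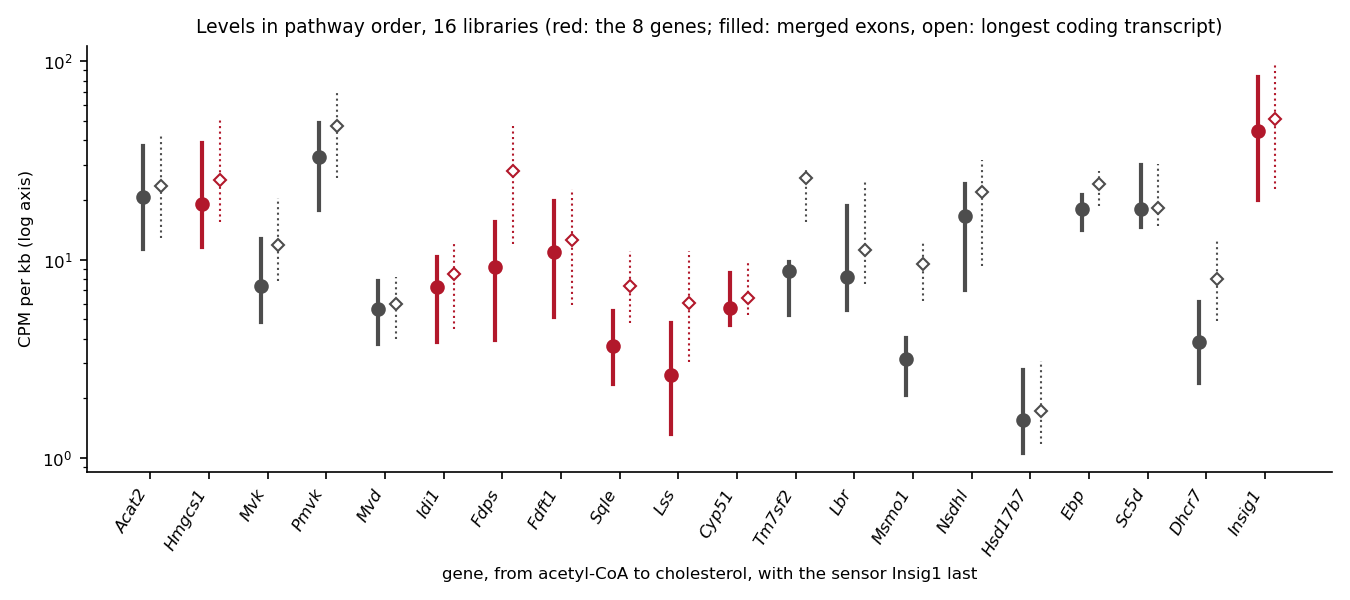
Level of each gene in CPM per kb (log axis) in pathway order, with the sensor Insig1 last. Points are medians and bars the range over 16 libraries, filled for merged exons and open for the longest coding transcript, with the 8 genes in red. Insig1 is highest of the 8 and Lss lowest, at 44.7 and 2.62 CPM per kb of merged exon.

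No difference between genotypes in any of the 8 genes passed the test. In 8 comparisons (5 pairs of genotypes, the interaction, and carriers against non-carriers of each mutation), edgeR's quasi-likelihood test called 0 of 8 at an adjusted p of 0.05, and it called 0 of 19736 genes overall (0%) in each. The smallest adjusted p of any of the 8 was 0.345. At an unadjusted p under 0.05, 1 of 8 passed in 1 comparison, Cyp51, lower in Lepob/+ carriers than in non-carriers, where 9.64% of all genes pass and 6.38% pass as lower. None of the 8 passed in the others, where the share of all genes was 4.37% in Lepob/+ against WT, 2.56% in SOD1G93A against WT, 16.5% in double mutants against SOD1G93A, 8.24% in double mutants against Lepob/+, 4.74% in double mutants against WT, 7.98% for the interaction and 3.2% for SOD1G93A carriers. These counts say nothing particular to the set. A smaller share of a cell type and less RNA per cell cannot be told apart in bulk tissue.

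Hmgcs1 (ENSMUSG00000093930, GRCm38 chr13:119690379-119708260, plus strand) encodes the synthase that makes HMG-CoA, the precursor of mevalonate. Its level was 53.4, 74.4, 121.3 and 115.7 CPM in WT, 149.1, 117.1, 67.7 and 158.2 in Lepob/+, 89.9, 75.4, 81.0 and 85.2 in SOD1G93A and 81.4, 89.7, 177.6 and 75.2 in the double mutants. The 4 SOD1G93A libraries lay close together, and every pair of genotypes overlapped. Lepob/+ carriers differed from non-carriers by a log2 fold change of 0.39 ± 0.23 (SE, n = 8 against 8, edgeR adjusted p = 0.530). In double mutants against SOD1G93A the change was 0.35 ± 0.32 (edgeR adjusted p = 0.587). It turned to -0.26 with the lymph node stroma score as a covariate and was 0.39 among lymph node poor libraries, where SOD1G93A is down to replicate 3, and it was -0.01 without SOD1G93A-Lepob/+ replicate 3. The carrier difference was 0.21 without that library and 0.02 with the stroma covariate, so no direction can be given for this gene.

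Idi1 (ENSMUSG00000058258, chr13:8885501-8892451, plus strand) makes the active isoprene unit. Fdps (ENSMUSG00000059743, chr3:89093588-89101959, minus strand) joins such units into farnesyl diphosphate, the branch point to sterols and to prenyl groups. Idi1 was at 22.8, 14.3, 36.3 and 24.5 CPM in WT, 19.2, 15.9, 28.0 and 20.8 in Lepob/+, 33.4, 25.8, 29.7 and 26.8 in SOD1G93A and 26.5, 13.6, 25.3 and 28.4 in the double mutants. Fdps was at 39.2, 19.6, 64.9 and 57.4 CPM in WT, 22.8, 26.6, 37.0 and 39.9 in Lepob/+, 46.0, 37.9, 51.7 and 37.3 in SOD1G93A and 46.5, 16.6, 33.7 and 46.8 in the double mutants. WT alone spanned most of the range of both genes. In Lepob/+ against WT the log2 fold change was -0.22 ± 0.27 for Idi1 and -0.52 ± 0.36 for Fdps, with 95% intervals of -0.81 to 0.36 and -1.29 to 0.25. These were 0.03 and -0.29 without WT replicate 3. Among lymph node poor libraries they were -0.72 and -1.06, with WT down to replicates 3 and 4 and so still resting on replicate 3. Fdps shares 1124 of its 4208 exon bases with Gm43738, annotated as protein coding on the same strand. Gm43738 had at most 34 counts in a library, and the effect of the overlap on the counts of Fdps was not tested.

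Fdft1 (ENSMUSG00000021273, chr14:63145150-63179578, minus strand) encodes squalene synthase, the first step given over to sterols. Its level was 41.7, 22.8, 83.5 and 21.8 CPM in WT, 49.0, 43.9, 65.0 and 58.1 in Lepob/+, 51.6, 41.9, 83.9 and 37.0 in SOD1G93A and 49.8, 26.6, 39.8 and 56.5 in the double mutants. Replicate 3 of WT and of SOD1G93A stood high, and all genotypes overlapped. Its log2 fold change was 0.35 ± 0.40 in Lepob/+ against WT and -0.31 ± 0.40 in double mutants against SOD1G93A, and the interaction was -0.66 ± 0.56 (edgeR adjusted p = 0.657). Without WT replicate 3 the change in Lepob/+ against WT was 0.91 and the interaction -1.22, and without WT replicate 4 the change was 0.11. Without SOD1G93A replicate 3 the change in double mutants against SOD1G93A was 0.00 and the interaction -0.33, and without the double mutant replicate 2 the change was -0.14. Fdft1 shares 774 of its 4227 exon bases with Ctsb, a lysosomal protease gene on the opposite strand at 1520 to 3139 CPM. Whether counting used strand is not stated in the sources used here, and across the 16 libraries the levels of both had r = -0.14, a description without a test.

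Sqle (ENSMUSG00000022351, chr15:59315077-59331192, plus strand) turns squalene into its epoxide and is a second control point of flux. Its level was 21.3, 14.8, 30.7 and 20.7 CPM in WT, 19.0, 13.2, 19.9 and 14.6 in Lepob/+, 23.3, 22.1, 22.4 and 20.5 in SOD1G93A and 20.3, 13.5, 19.3 and 21.8 in the double mutants. The SOD1G93A libraries lay within a narrow band, and in the pairs compared all genotypes overlapped. Lepob/+ carriers were at a log2 fold change of -0.32 ± 0.15 against non-carriers (n = 8 against 8, unadjusted p = 0.05055 and adjusted p = 0.512 by edgeR). Without WT replicate 3, the highest library, the value was -0.21.

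Lss (ENSMUSG00000033105, chr10:76531588-76557138, plus strand) closes the epoxide into lanosterol, the first sterol. Its level was 28.7, 14.2, 51.6 and 34.2 CPM in WT, 16.8, 15.8, 37.4 and 17.4 in Lepob/+, 41.1, 22.2, 41.3 and 27.7 in SOD1G93A and 36.0, 15.2, 24.8 and 35.8 in the double mutants. Of the 4 Lepob/+ libraries, 3 were low and the lymph node rich replicate 3 was high. Over all genotypes, however, the median of Lss was 28.2 CPM in the 6 lymph node rich libraries and 29.5 in the 10 poor ones. In Lepob/+ against WT the log2 fold change was -0.56 ± 0.40, with a 95% interval of -1.41 to 0.29 (edgeR adjusted p = 0.9997). It was -0.24 without WT replicate 3, -0.96 without Lepob/+ replicate 3 and -1.38 among lymph node poor libraries. There WT is down to replicates 3 and 4, and replicate 3 is the highest library of all for this gene. Lepob/+ then keeps replicate 4, the library with the most muscle transcripts.

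Cyp51 (ENSMUSG00000001467, chr5:4081145-4104746, minus strand) removes a methyl group from lanosterol. Its level was 23.9, 23.9, 37.7 and 25.7 CPM in WT, 23.8, 24.5, 25.9 and 20.7 in Lepob/+, 32.2, 29.3, 27.7 and 26.6 in SOD1G93A and 25.3, 21.1, 25.4 and 23.7 in the double mutants. All 4 double mutant libraries were below all 4 SOD1G93A libraries, which no other of the 8 genes showed in this comparison and which 7.18% of all genes tested showed in either direction. In the other pairs compared none of the 8 was without overlap, against 0.907% of all genes in Lepob/+ against WT, 2.06% in SOD1G93A against WT, 2.35% in double mutants against Lepob/+ and 3.64% in double mutants against WT. The log2 fold change was -0.28 ± 0.15, with a 95% interval of -0.59 to 0.03 (edgeR adjusted p = 0.345). In Lepob/+ carriers against non-carriers it was -0.25 ± 0.10 (n = 8 against 8, unadjusted p = 0.02763 and adjusted p = 0.512 by edgeR), and -0.16 without WT replicate 3. The voom method of limma with quality weights, run as an alternative, gave -0.27 with an adjusted p of 0.04943 for double mutants against SOD1G93A, in a comparison where it called 6254 of all 19736 genes (31.7%). DESeq2 called 0 of the 8 there and 562 of 30729 genes (1.83%), a larger set of genes than that of voom. With the stroma score as a covariate the change of Cyp51 was -0.34 ± 0.17, as large as without it. Among lymph node poor libraries it was -0.21 ± 0.23, with SOD1G93A then down to replicate 3 alone. Cyp51 shares 166 exon bases with Akap9 on the opposite strand. Hmgcs1, Idi1 and Lss share 557, 323 and 381 exon bases with opposite-strand genes that had at most 3 counts in a library.

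Insig1 (ENSMUSG00000045294, chr5:28071363-28078662, plus strand), the sensor, had the highest level per kb of the 8. Its level was 140.2, 120.3, 243.4 and 126.8 CPM in WT, 136.4, 126.9, 191.5 and 61.6 in Lepob/+, 258.8, 125.9, 209.0 and 113.0 in SOD1G93A and 170.4, 109.4, 154.0 and 164.5 in the double mutants. The lowest value belonged to Lepob/+ replicate 4, the library with the most muscle transcripts, and WT replicate 3, with the next most, was second highest. The log2 fold change was -0.29 ± 0.35 in Lepob/+ against WT and -0.24 ± 0.35 in double mutants against SOD1G93A, both smaller than their SE. In Lepob/+ against WT it was 0.00 without WT replicate 3 and -0.07 without Lepob/+ replicate 4, and in double mutants against SOD1G93A 0.01 without SOD1G93A replicate 1.

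**Figure D2:**
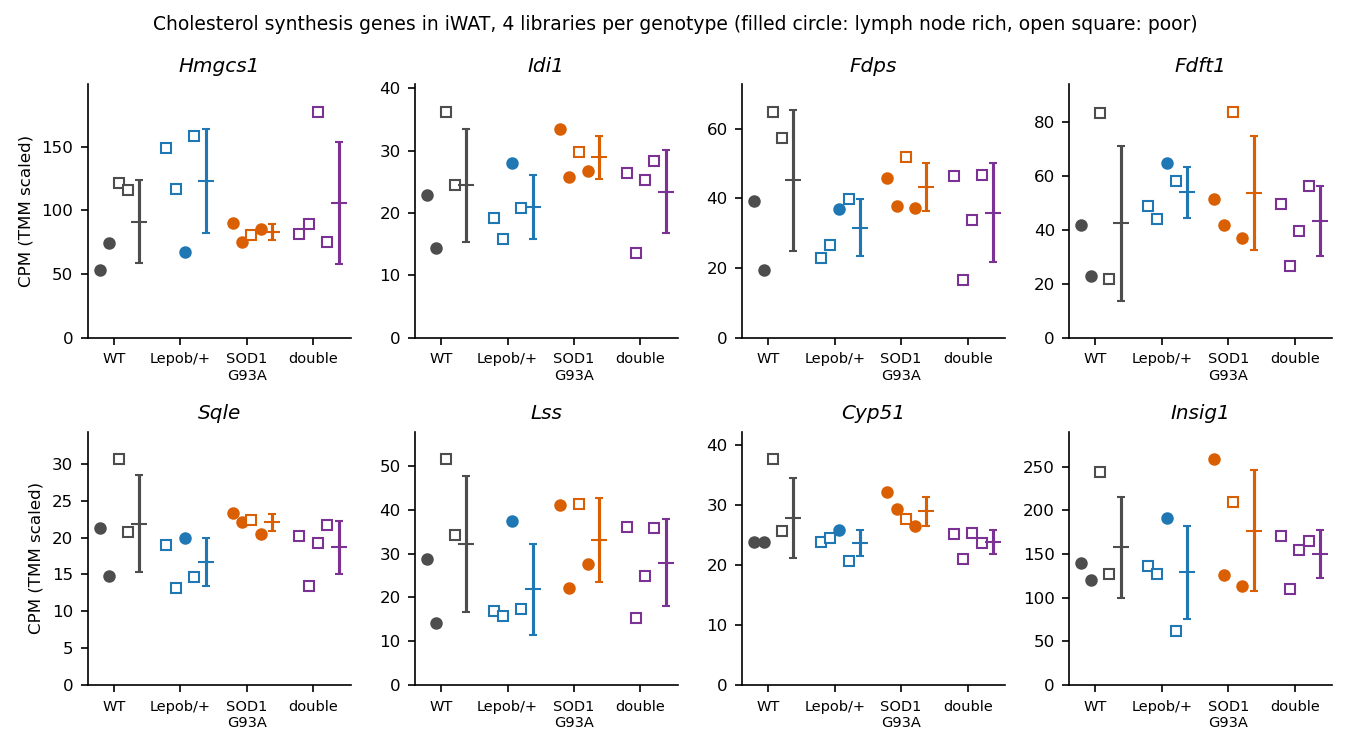
CPM of each of the 8 genes in each library, by genotype (double: SOD1G93A-Lepob/+), with the mean and SD of 4 libraries beside the points. Filled circles are lymph node rich libraries and open squares lymph node poor ones. In the pairs of genotypes compared, the libraries overlap for all 8 genes except Cyp51, at 21.1 to 25.4 CPM in double mutants and 26.6 to 32.2 in SOD1G93A.

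In the comparisons that add the ob allele, most of the 8 genes lay on the same side of 0. In Lepob/+ against WT, 6 of 8 had a value below 0 and Hmgcs1 and Fdft1 one above it, with a median log2 fold change of -0.26 against 0.03 over all genes, of which 44.4% were below 0. In double mutants against SOD1G93A, 7 of 8 were below 0 and Hmgcs1 above it, with a median of -0.26 against 0.00 over all genes, of which 49.9% were below 0. Over both backgrounds, 6 of 8 were below 0 in Lepob/+ carriers, with a median log2 value of -0.26. All genes had a median of 0.03 there, and 45.8% were below 0. In SOD1G93A carriers 7 of 8 had a value above 0, with a median of only 0.07 (46.5% of all genes above 0). The count was 6 of 8 above 0 in SOD1G93A against WT (median 0.05, 53% of all genes) and 6 of 8 above 0 in double mutants against Lepob/+ (median 0.16, 42.1% of all genes). In double mutants against WT 6 of 8 were below 0 (median -0.14, 49% of all genes). The interaction had a median of -0.0016, with 4 of 8 genes above 0 (42.5% of all genes). The median in Lepob/+ against WT came down to -0.02 without WT replicate 3. It went to -0.73 among lymph node poor libraries (2 of WT, replicates 3 and 4, and 3 of Lepob/+). The comparisons share control libraries, and the genes rise and fall together, so these are not 8 separate observations.

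**Figure D3:**
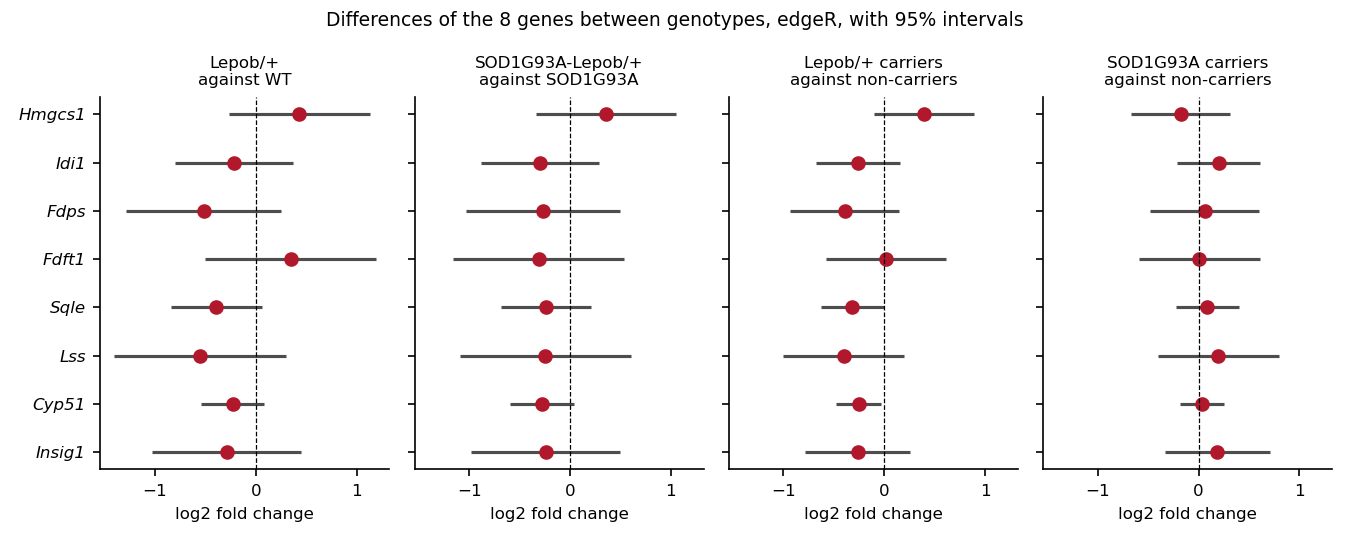
Log2 fold change (points) with its 95% interval (bars) for each gene in 4 comparisons, from edgeR. All intervals shown cross 0 except that of Cyp51 in Lepob/+ carriers, -0.47 to -0.03.

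Much of the variation of the set lay between libraries of the same genotype, though no split of the variance was made. Within a genotype the SD of the 8 genes on the log2 scale had a median of 0.51, against 0.42 over all genes tested. Lss varied most (0.61) and Cyp51 least (0.19). Of all genes tested, 68.2% had a lower SD than Lss and 14.05% a lower SD than Cyp51, so this spread is not particular to the set. WT replicate 3 was highest of all 16 libraries for 5 of the 8 genes, with a mean z score of 1.62. The double mutant replicate 2 (-1.33) and WT replicate 2 (-1.20) were the lowest, so the top and a near-bottom library were both WT.

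Apart from Hmgcs1, the genes rose and fell together. Between the 7 others there are 21 pairs, and all 21 had a positive Pearson r over the 16 libraries, from 0.43 to 0.92 with a median of 0.71. Of these, 16 had a permutation p under 0.05 after adjustment over all 28 pairs for Pearson's r, and 16 for Spearman's rho. Fdft1 followed the others least: of the 15 pairs without it and Hmgcs1, 14 passed for r and 13 for rho. The closest pair was Idi1 and Lss (r = 0.92, rho = 0.93, permutation p = 1e-05 for each, the smallest that 100000 resamples can give, adjusted p = 9.333e-05 and 0.00028). The loosest was Fdft1 and Cyp51 (r = 0.43, permutation p = 0.09787, rho = 0.24, permutation p = 0.373). With genotype means removed, the 21 values ran from 0.38 to 0.93. Within the 6 lymph node rich libraries they ran from 0.46 to 0.98 and within the 10 poor ones from 0.42 to 0.93. Leaving out the 2 libraries farthest from the median of the first gene of each pair gave 0.18 to 0.91, still all positive. The permutation p values are for all 16 libraries together, and the values with genotype means removed or within a kind of library have none. Setting Hmgcs1 or Fdft1 apart rests on these same libraries. No share over pairs of other genes is given, so the counts do not show a link particular to this set. The labels give no batch, and counts of different genes in a library share its scaling.

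Hmgcs1 did not follow. Its 7 pairs had an r of -0.26 to 0.04, and none passed the permutation test after adjustment for r or rho. Within the lymph node rich libraries these values were -0.06 to 0.70 and within the poor ones -0.41 to -0.04. Instead its level went with lymph node content: 53.4 to 89.9 CPM (median 74.9) in the 6 rich libraries and 75.2 to 177.6 CPM (median 116.4) in the 10 poor ones. Its r with the stroma score was -0.65 over all 16 and -0.10 and -0.32 within rich and poor libraries, so most of that relation lay between the 2 kinds of library. The highest value, 177.6 CPM, was in the library without Xist.

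**Figure D4:**
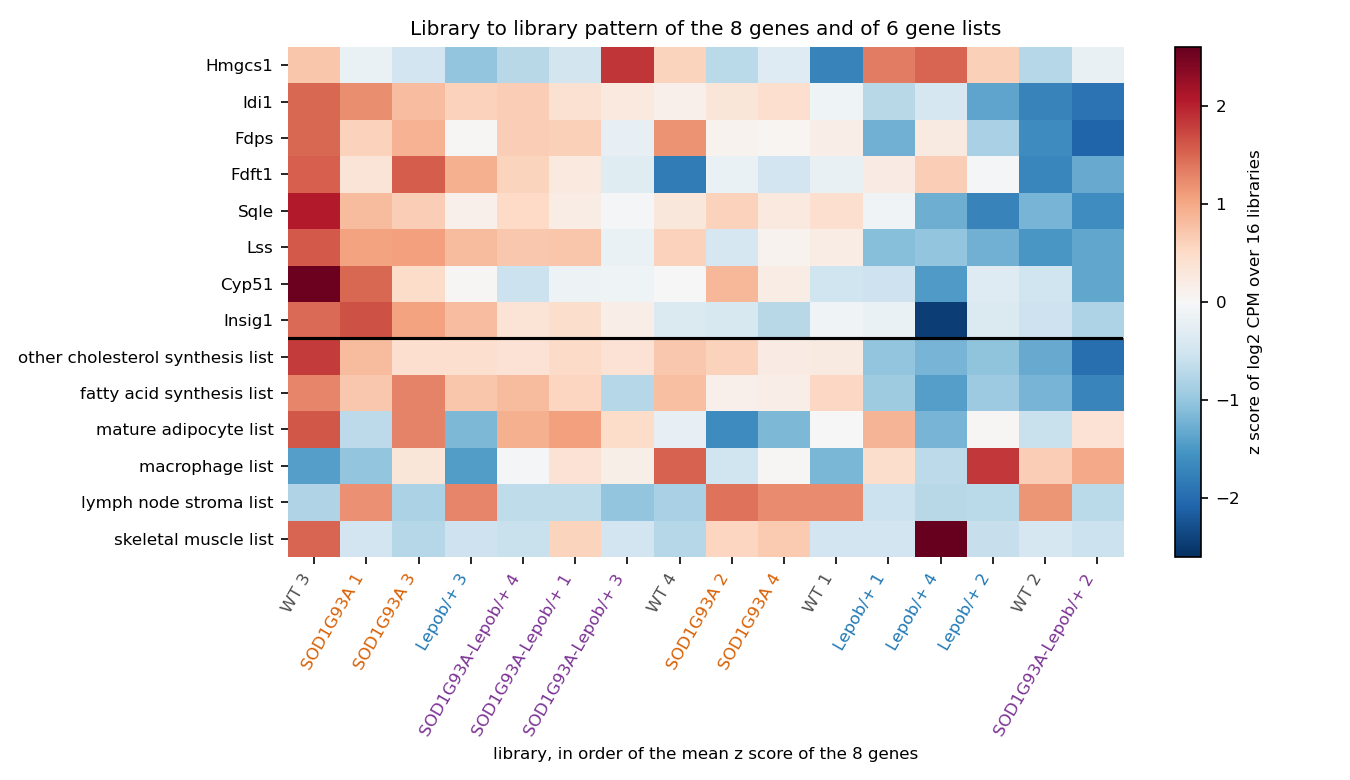
Z score of log2 CPM for each of the 8 genes (above the line) and for the mean of 6 gene lists (below) in each library, in order of the mean z score of the 8 genes. WT replicate 3 is at the left end and the double mutant replicate 2 at the right. The row of Hmgcs1 does not follow the order, and that of Fdft1 departs from it in places, as in WT replicate 4 (z = -1.81).

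The level of the 7 other genes went with that of fatty acid synthesis. The mean of 17 fatty acid synthesis genes had an r of 0.49 (Fdft1) to 0.94 (Lss) with them and of -0.41 with Hmgcs1, given as descriptions over 16 libraries. For Fasn, the fatty acid synthase, r was 0.91 with Lss, and 0.91 within the rich and 0.96 within the poor libraries. With Hmgcs1 it was -0.52, and -0.26 and -0.49 within them. Fasn itself spanned 1288 to 16950 CPM. Srebf1 had an r of 0.50 (Cyp51) to 0.80 (Lss) with the 7 genes. Srebf2, which encodes the main factor of this pathway, had an r of -0.11 to 0.29 with them, and of -0.69 with Hmgcs1 that went to -0.07 within the rich and -0.47 within the poor libraries. The macrophage score moved against the 7 genes, with an r of -0.33 to -0.62. The mature adipocyte score had an r of 0.14 to 0.46 with the 8 genes over all libraries. Within the rich libraries it was -0.52 to 0.13 and within the poor ones -0.45 to 0.94. The part of either score in the pattern was not tested.

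**Figure D5:**
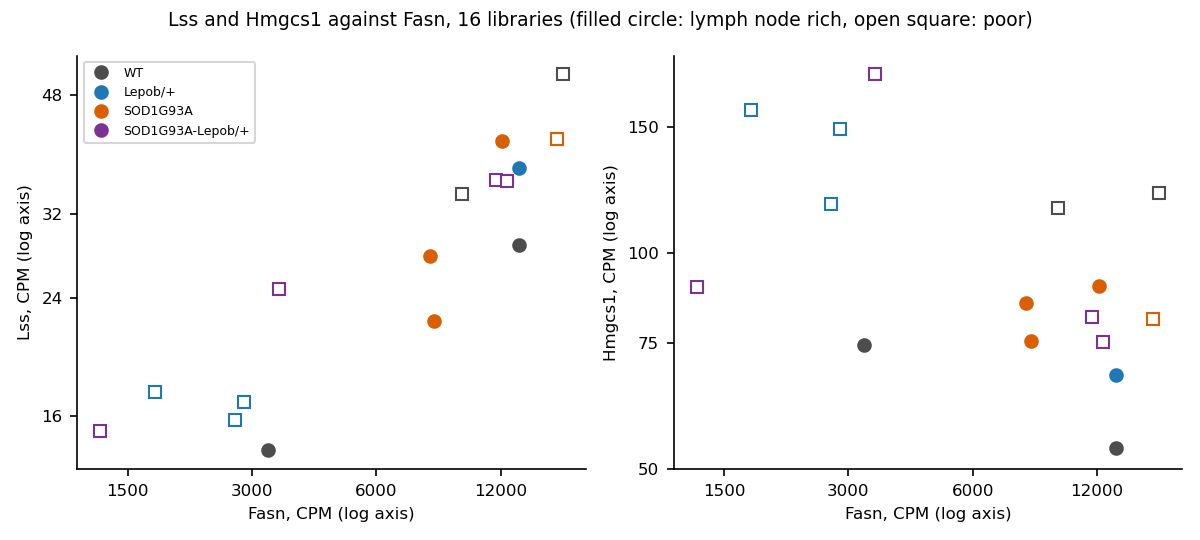
CPM of Lss against Fasn and of Hmgcs1 against Fasn (all log axes), 1 point per library, coloured by genotype, filled circles for lymph node rich and open squares for poor libraries. Lss rises with Fasn (r = 0.91) while Hmgcs1 tends the other way (r = -0.52).

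Over 15764 genes, those most like the mean z score of the 8 were Scd2 (r = 0.91), Pm20d1 (0.90), Cspg4 (0.90), Nsdhl (0.89), Poln (0.88), Lactb2 (0.87), Pnpla3 (0.87), Ppp2r5a (0.87), Pgd (0.86) and Eno1 (0.86). Scd2 is a fatty acid desaturase, Nsdhl a later enzyme of cholesterol synthesis, Pgd an enzyme of the pentose phosphate route and Eno1 one of glycolysis. Further down were Dhcr7 at rank 14, Pmvk at 18, Acss2 at 30, Acly at 45, Fasn at 50 and Srebf1 at 123. These ranks are over 16 libraries and describe likeness alone.

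The rest of the pathway showed no called change either. Of 14 other enzymes, edgeR called 0 in each comparison, and 11 of 14 were below 0 in Lepob/+ carriers (median log2 fold change -0.20). Those past an unadjusted p of 0.05 there were Mvd, which completes the isoprene unit (-0.37 ± 0.14, edgeR adjusted p = 0.512), and Dhcr7, the last reductase (-0.43 ± 0.17, edgeR adjusted p = 0.512). Of the other enzymes before squalene, the thiolase Acat2 was at a log2 fold change of -0.22 ± 0.25 and the mevalonate kinases Mvk and Pmvk at -0.09 ± 0.18 and -0.36 ± 0.19. Of those after lanosterol, the reductases Tm7sf2 and Lbr were at -0.18 ± 0.12 and -0.39 ± 0.23, and Nsdhl and Hsd17b7 of demethylation at -0.34 ± 0.24 and -0.06 ± 0.19. The desaturase Sc5d was at -0.11 ± 0.16, whereas Msmo1 and Ebp were at 0.21 ± 0.15 and 0.09 ± 0.08. In double mutants against SOD1G93A those past an unadjusted p of 0.05 were Lbr (-0.82 ± 0.33, edgeR adjusted p = 0.261) and Mvd (-0.44 ± 0.20, edgeR adjusted p = 0.287). The only other in any comparison was again Mvd, in double mutants against WT. In double mutants against SOD1G93A voom called genes of the list, among them Mvd, Lbr and Dhcr7 lower and Ebp higher, beside 31.7% of all genes. In Lepob/+ carriers its calls in the list included Mvd and Lbr lower and Msmo1, an oxidase of sterol demethylation, higher, beside 20.7% of all genes. DESeq2 called 0.156% there, out of a larger set of 30729 genes.

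Some of these differences moved with lymph node content. Lbr, a reductase of the sterol ring that is also a protein of the nuclear envelope, was at 56.7 to 88.8 CPM in the 6 lymph node rich libraries and 26.6 to 41.6 CPM in the 10 poor ones, without overlap. With the stroma score as a covariate the change of Lbr in double mutants against SOD1G93A went from -0.82 to 0.05, and those of Mvd and Dhcr7 were -0.25 and -0.48. Srebf2 was at -0.54 ± 0.28 (edgeR adjusted p = 0.337) without and 0.14 with the covariate. Of these 4 genes Dhcr7 stayed nearest to its size, -0.50 ± 0.24 without the covariate, and its 4 SOD1G93A libraries (26.3 to 29.0 CPM) did not overlap the 4 of the double mutants (13.9 to 22.6 CPM). Ebp, a sterol isomerase, was lower in all 4 SOD1G93A libraries (37.8 to 41.0 CPM) than in all 4 of WT (41.5 to 44.3 CPM) and of the double mutants (41.1 to 48.8 CPM). Of all genes tested, 2.06% did not overlap in SOD1G93A against WT and 7.18% in double mutants against SOD1G93A.

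Of the genes around the pathway, edgeR and DESeq2 called 0 in each of the 8 comparisons. In double mutants against SOD1G93A voom called 2 of 9 genes of sterol sensing (Srebf2 and Insig2), 3 of 8 of cholesterol uptake (Stard4, Npc2 and Lrp1), 1 of 7 of LXR and export (Nr1h3) and 2 of 7 of esters and oxysterols (Nceh1 and Ch25h), in either direction, beside 31.7% of all genes. In Lepob/+ carriers it called Srebf2, Insig2, Lrp1, Nceh1 and Ch25h, beside 20.7% of all genes. It called 0 of the fatty acid synthesis and isoprenoid lists in both. In Lepob/+ carriers, the fatty acid synthesis list was below 0 in 16 of 17 genes, with a median log2 fold change of -0.58 (all genes 0.03, 45.8% below 0). In Lepob/+ against WT it was below 0 in 15 of 17, with a median of -0.72 (44.4% of all genes below 0). In double mutants against SOD1G93A it was below 0 in 15 of 17, with a median of -0.39 (49.9% of all genes below 0). The carrier comparison holds the libraries of both pairs, so these are not separate results. By mean log2 CPM of the list, WT replicate 3 (9.53) and SOD1G93A replicate 3 (9.55) were highest, both on the control side. The genes with the smallest p were Scd2 (-0.98 ± 0.45 in Lepob/+ against WT, edgeR adjusted p = 0.9997) and Fads2 (-0.26 ± 0.12 in Lepob/+ carriers, edgeR adjusted p = 0.512). In Lepob/+ carriers the 9 genes of sterol sensing had a median of 0.06, the 8 of cholesterol uptake 0.06, the 7 of LXR and export 0.00, the 7 of esters and oxysterols -0.19 and the 10 of the isoprenoid branch 0.02.

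Single genes of these lists are given by their smallest p over the 8 comparisons, with edgeR. For sterol sensing they were Rnf139, a ubiquitin ligase of the endoplasmic reticulum (0.46 ± 0.18 in Lepob/+ against WT, adjusted p = 0.9997), and Insig2, the second INSIG gene (0.24 ± 0.12 in Lepob/+ carriers, adjusted p = 0.515). For uptake the gene given is Npc1, which releases cholesterol from lysosomes (-0.44 ± 0.15 in double mutants against Lepob/+, adjusted p = 0.597). For export they were the LXR genes Nr1h3 (interaction 0.83 ± 0.29, adjusted p = 0.564) and Nr1h2 (-0.18 ± 0.09 in SOD1G93A against WT, adjusted p = 0.9985). For esters and oxysterols they were Ch25h, an oxysterol synthase also made by immune cells (-1.59 ± 0.57 in double mutants against SOD1G93A, adjusted p = 0.261), and Lcat (interaction 0.68 ± 0.29, adjusted p = 0.564). For the isoprenoid branch they were Nus1 (0.29 ± 0.10 in double mutants against Lepob/+, adjusted p = 0.597) and Dhdds (interaction 0.53 ± 0.21, adjusted p = 0.564), the paired subunits of the enzyme that makes dolichol precursors. Srebf1 had a log2 fold change of -0.15 ± 0.17 in Lepob/+ carriers.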

How the data were processed

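RNA from 16 iWAT samples was sequenced by the authors. Per the methods, fastp dropped reads of Phred quality below 30 or length below 30 bases, the rest were aligned to mm10 with HISAT2 2.1.0, and uniquely mapped reads per gene were counted with featureCounts 2.0.2. The deposited values are raw counts by the authors, with no normalization. The study names a stranded mRNA kit and the labels another, and the strand setting and annotation release are not given in the sources used here. Gene coordinates and lengths were from GENCODE M21 (GRCm38).

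Counts were analysed with edgeR 4.0.16 in R 4.3.3 in 1 fit of all libraries: filterByExpr (min.count 10, min.total.count 15), TMM, robust quasi-likelihood F test, Benjamini-Hochberg over 19736 genes, prior count 1 for log2 CPM. Intervals are 95%. Alternatives were DESeq2 1.42.0, limma 3.58.1 voom with quality weights, other size factors and filters, fits of the compared genotypes only, the replicate number as a block, covariates, and leaving out libraries. Pairs of genes were tested with 100000 permutations, two-sided. A library was called lymph node rich where the mean log2 CPM of the stroma list was above 1. The fit was tested on simulated counts with some genes changed by known amounts. These had no differences in lymph node or muscle content between libraries, so the simulation does not cover that part of the real spread. Per the study's methods n counts animals, so each library was taken as 1 mouse.

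The genes, lists and lymph node threshold were chosen with earlier results of these data known. Named were the 8 genes, the 14 other enzymes, up to 2 genes per list of the sterol, isoprenoid and fatty acid pathways with the smallest p over the comparisons, Srebf1 and Srebf2, and the 10 genes most like the mean z score of the 8, with at least 1 CPM. Fasn, Acly, Acss2, genes overlapping the 8 and genes given for a voom call were named after their values were seen. Some genes of the lists are not reported here by name. Marker lists of other cell types are given as sums or scores.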

Additional observations from a re-analysis of the deposited data

Results flagged for a closer look

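Of 84 groups of 4 libraries tested for a value far from the other 3, 5 were marked, and chance marks about 1 in 20. Idi1 in SOD1G93A-Lepob/+ replicate 2 was at 13.6 CPM against 25.3 to 28.4 in the other 3, and the mean log2 CPM of the 8 genes in the same library was 4.74 against 5.42 to 5.50. Lss in Lepob/+ replicate 3 was at 37.4 CPM against 15.8 to 17.4, and Dhcr7 in that library was at 29.4 CPM against 16.4 to 17.0. Cyp51 in WT replicate 3 was at 37.7 CPM against 23.9 to 25.7.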

How the results depend on the processing

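The count of 0 of 8 genes called held in 177 of 178 alternative results over the 8 comparisons. The exception was voom with quality weights in SOD1G93A-Lepob/+ against SOD1G93A, where 1 gene, Cyp51, was called. The median log2 fold change of the 8 moved by less than 1 SD between replicates in 177 of 178. This SD, 0.356 for the mean log2 CPM of the 8, is larger than every median of the main fit. A median could thus reach 0 or change sign within it, so the count does not show that a direction held. The exception, an alternative chosen after seeing the data, was lymph node poor libraries only in Lepob/+ against WT, at -0.73. That median ran from -0.45 to -0.02 when each library was left out in turn, and in SOD1G93A-Lepob/+ against SOD1G93A it ran from -0.35 to -0.11. It changed sign in 23 of the 178, all in the other comparisons. Of 1424 results for single genes, 139 changed sign without a call on either side. Counts over all genes depended on the tool: in SOD1G93A-Lepob/+ against SOD1G93A edgeR called 0 (3261 at an unadjusted p under 0.05), DESeq2 562 and voom 6254, and in Lepob/+ carriers 0, 48 and 4092. The counts of DESeq2 are out of 30729 genes and those of edgeR and voom out of 19736.

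Under a replicate block (edgeR with the number as a factor), 0 of the 8 genes were called and the median was -0.26 in Lepob/+ against WT and -0.25 in SOD1G93A-Lepob/+ against SOD1G93A. The numbers did not pair the libraries: over 24 same-numbered pairs, deviations correlated above 0.1 in 5 and below -0.1 in 8. Sampling error was small beside the spread between libraries, since each gene had at least 439 counts.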
